A study of Schizosaccharomyces pombe with 4 samples.

Results

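Non-coding RNAs of the fission yeast Schizosaccharomyces pombe that lie opposite no other gene were compared between wild-type cells and cells lacking eIF3e, a subunit of translation initiation factor eIF3. They were the features of the deposited table whose identifier begins with SPNCRNA and that overlap no feature of another kind on the opposite strand, with SPNCRNA.111 left out. This gave 511 RNAs out of 6808 features, from 1411 SPNCRNA features, 899 of which lie antisense to a gene. Both strains are haploid, of mating type h-, and carry ura4-D18 and leu1-32, and the deletion strain has kanMX6, a drug resistance cassette, in place of int6, the gene of eIF3e. Cells were grown in YES, a rich yeast extract medium, and total RNA depleted of rRNA was sequenced on the SOLiD 4 platform, with 2 libraries per strain. The labels do not say that the replicates are separate cultures, so p-values measure only the spread between these libraries, which may be technical.

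Non-coding RNAs of this yeast are mostly made by RNA polymerase II, and many are degraded soon after synthesis by the nuclear exosome. Some start in the gap in front of a protein-coding gene and run away from it, which is called divergent transcription. Others have defined jobs, among them the RNA of the signal recognition particle, the RNA of the rRNA-processing enzyme RNase MRP, the guide RNAs of rRNA modification, telomerase RNA, and RNAs that hold the meiotic mRNA remover Mmi1 in nuclear dots.

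The libraries held 17485020 and 9926548 reads for wild type and 28254322 and 16679123 reads for the deletion. Nuclear rRNA left after depletion was 47.6% and 56.6% of all reads for wild type, against 51.9% and 64.1% for the deletion. The deleted gene int6 had 504 and 194 reads in wild type, against 1 and 10 reads in the deletion. Levels below are CPM, reads scaled to library size with edgeR's TMM factors, which allows libraries to be compared, or the deposited RPKM, which is per length and allows RNAs to be compared. A log2 change is the deletion against wild type, as fitted by edgeR.

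The sequences shown first are those at the start of some of the RNAs named below, none of which had an adjusted p under 0.05 in edgeR. The gaps lie between the start of a neighbouring gene that runs the other way and the start of an RNA that was lower in both deletion libraries, and they are followed by the first 120 bases of one of these and of SPNCRNA.1444, the most abundant by RPKM of the 10 RNAs named for the smallest p among those higher. The gap of SPNCRNA.189 is chr1:2248536-2248602 on the plus strand, that of SPNCRNA.1499 is chr2:2265244-2265285 on the plus strand, and that of SPNCRNA.667 is chr1:608832-608892 on the minus strand. The start of SPNCRNA.189 is chr1:2248603-2248722 on the plus strand and that of SPNCRNA.1444 is chr2:1557928-1558047 on the minus strand. All are 5′ to 3′ along the RNA, from RefSeq assembly ASM294v3, with no letters capitalised.
SPNCRNA.189 gap: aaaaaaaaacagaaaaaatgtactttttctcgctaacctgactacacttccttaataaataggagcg
SPNCRNA.1499 gap: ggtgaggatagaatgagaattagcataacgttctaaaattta
SPNCRNA.667 gap: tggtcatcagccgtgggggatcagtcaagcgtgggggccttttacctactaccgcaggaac
SPNCRNA.189 start: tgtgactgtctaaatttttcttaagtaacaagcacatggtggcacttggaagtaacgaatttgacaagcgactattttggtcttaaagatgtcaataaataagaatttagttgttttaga
SPNCRNA.1444 start: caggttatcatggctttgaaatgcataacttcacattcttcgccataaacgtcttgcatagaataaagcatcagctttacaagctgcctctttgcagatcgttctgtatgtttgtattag

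The next sequence is a stretch of 300 bases from a meiotic RNA whose strains overlapped, shown for its dense copies of a motif. Capitals mark TNAAAC, read UNAAAC in the RNA, the short motif that Mmi1 is known to bind. The stretch of SPNCRNA.103, the long isoform of sme2 or meiRNA, is chr2:339347-339646 on the minus strand and holds 8 copies. It covers bases 367 to 666 of the deposited feature. The coordinates of that feature are not identical to those in RefSeq, so its copies, positions and length may differ from those of the RefSeq RNA.
SPNCRNA.103 stretch: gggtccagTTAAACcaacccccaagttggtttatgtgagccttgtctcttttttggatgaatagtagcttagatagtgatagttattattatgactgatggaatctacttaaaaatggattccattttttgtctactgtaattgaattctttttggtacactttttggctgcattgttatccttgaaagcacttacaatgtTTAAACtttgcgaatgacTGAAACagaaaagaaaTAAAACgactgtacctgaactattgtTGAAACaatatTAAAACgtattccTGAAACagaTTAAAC

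Per length, SPNCRNA.103, with 8 copies in its 667 bases, had rank 2 of the 457 RNAs with a span of at least 300 bases. The meiotic RNA omt3 and the overlapping SPNCRNA.994, described below, had 2 copies each. Per kb these were 2.00 and 1.91 copies, at ranks 249 and 262. The median of those 457 was 2.11 copies per kb, against 1.72 for all nuclear features, and their median GC content was 33.0%, against 36.4%. A match to the letters is a description and not a binding site.

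The 511 RNAs were short and scattered. Their length ran from 66 to 5123 bases with quartiles of 446, 729 and 1095 bases, against a median of 1310 bases for the antisense non-coding RNAs and 1731 bases for features outside SPNCRNA. Chromosomes 1, 2 and 3 held 233, 185 and 93 of them. On the plus strand lay 346, against 165 on the minus strand, whereas antisense non-coding RNAs were split 437 to 462. The excess was found among RNAs with up to 3 digits in the identifier, with 270 plus and 89 minus, and not among those with 4 digits, with 76 on each strand.

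Most of the RNAs had a divergent neighbour. The nearest feature upstream was on the opposite strand for 382 and on the same strand for 129, at a median distance of 409 bases. The nearest feature downstream was on the same strand for 329 and on the opposite strand for 182, at a median distance of 662 bases. A divergent gene lay within 500 bases of the start of 226 RNAs, as in the gaps printed above. No other feature overlapped 190 of the RNAs, 237 overlapped a feature on the same strand and 184 overlapped another SPNCRNA feature on the opposite strand, which is not a gene of another kind. Reads of same-strand overlaps cannot be assigned to one feature: 159 RNAs had fractional counts, 153 of them with a same-strand overlap. The sources used here do not say whether counting used the strand.

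RefSeq described 297 of the RNAs as plain non-coding RNA, 71 as a possible alternative UTR of a neighbouring gene, 29 as poly(A)-bearing, 20 as centromeric or centromere-proximal and 9 as a small nucleolar RNA (snoRNA) or its primary transcript. Another 51 had no RefSeq entry. In the window from 250 bases before to 50 after the start, on either strand, 48.1% of the RNAs held the TATA box letters TATAAA, against 49.2% of all nuclear features. The letters TGACGT of an Atf1 site were in 8.81%, against 6.15%, and the stress starvation response letters CCCCTC in 3.91%, against 2.33%. The antisense non-coding RNAs stood nearer, with TGACGT in 7.34% and CCCCTC in 3.56%. None of the 3 motifs contains another, and a window without a match says nothing about a factor.

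Most of the RNAs were scarce. By mean deposited RPKM, 289 of 511 were below 1, 464 were below 10, 20 reached 100 and 13 reached 1000. At least 1 read was found for 432 and 354 RNAs in the wild-type libraries and for 349 and 356 in the deletion libraries, and for 264 in all 4. At least 100 reads were found for 39 in all 4. In every library 27 RNAs had 0 reads, where a count of 0 allows up to 3 reads. RNAs with 0 reads in both deletion libraries but not in wild type numbered 73, against 30 with 0 reads in both wild-type libraries only, although the deletion libraries of each replicate number were the deeper. The same skew was seen elsewhere, with 83 against 25 among the antisense non-coding RNAs and 73 against 19 among features outside SPNCRNA. The wild-type reads of the 73 had a median of 4 and reached 49 at most, so this difference rests on few reads each.

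**Figure D1:**
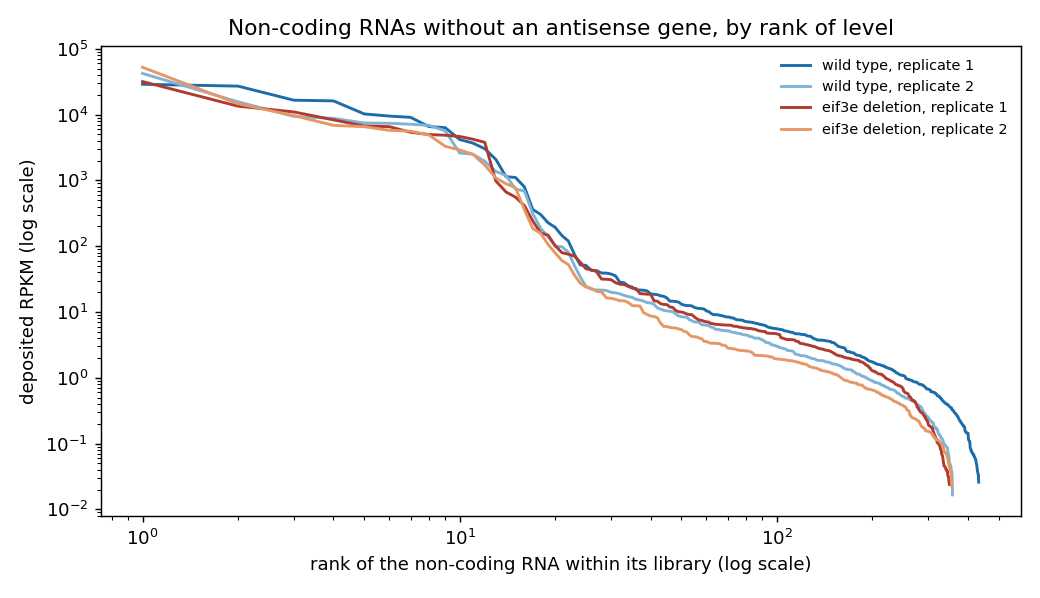
Deposited RPKM of the non-coding RNAs without an antisense gene (log scale) against their rank within each library (log scale), one line per library. The most abundant RNA stands between 28824 and 52190 RPKM and the lines fall steeply after about rank 13, with most of the RNAs below 1 RPKM.

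A few RNAs, several of known function, held most of the reads. The RNAs took 9.01% and 10.3% of the reads outside nuclear rRNA in wild type and 8.23% and 12.7% in the deletion, so the strains overlapped (exact two-sided permutation test p = 1, where the smallest possible is 0.333). The 10 most abundant took 82.6% and 88.2% of the reads of all 511 in wild type and 81.9% and 91.4% in the deletion. The other 501 took 1.56% and 1.21% of the reads outside nuclear rRNA in wild type and 1.49% and 1.09% in the deletion, again with overlap between the strains (exact permutation p = 0.667).

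srp7, the 7SL RNA that scaffolds the signal recognition particle (chr1:4268566-4269064, plus strand), was the most abundant by its mean over the libraries. Its deposited RPKM was 27027 and 42144 in wild type and 31694 and 52190 in the deletion, so replicate 2 was high in both strains and the strains overlapped. Its share of the reads of all 511 was 31.2% and 50.5% in wild type and 43.9% and 60.6% in the deletion, and its log2 change was 0.49 ± 0.77 (SE, n = 2 per strain). mrp1, the RNA of RNase MRP, which cuts precursor rRNA, had 6563 and 7121 RPKM in wild type, against 4844 and 5596 RPKM in the deletion, but it shares reads with the overlapping SPNCRNA.727. On the CPM scale its libraries overlapped between the strains and its log2 change was −0.18 ± 0.51. The other 8 of the 10 most abundant had mean RPKM values from 3576 for SPNCRNA.1094 to 18106 for SPNCRNA.515, a feature of 105 bases. SPNCRNA.510, with 1391 and 1199 CPM in wild type, against 989 and 993 CPM in the deletion, was below in both deletion libraries at a log2 change of −0.39 ± 0.35. snoR61 also had both deletion libraries below both wild-type libraries. SPNCRNA.1094 was the one of the 10 with both deletion libraries above both wild-type libraries, with 799 and 756 CPM against 952 and 1001 CPM and a log2 change of 0.33 ± 0.33.

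Most snoRNA features, whose products guide chemical modification of rRNA and other RNAs, stood lower in the deletion libraries. Of the 9 snoRNA or snoRNA-precursor features, 6 had both deletion libraries below both wild-type libraries and 0 had both above, where all features stood at 21.1% below and 18.5% above. None of the 9 had an adjusted p under 0.05 in edgeR's quasi-likelihood test. snoR61 (SPNCRNA.445, chr2:3874254-3874906, minus strand) had 2672 and 2954 CPM in wild type, against 1059 and 1554 CPM in the deletion. Its log2 change was −1.11 ± 0.42, with an unadjusted p of 0.0321 and an edgeR adjusted p of 0.438. SPNCRNA.723, a snoRNA primary transcript, had 85.9 and 109 CPM in wild type, against 54.2 and 68.0 CPM in the deletion. sno530 went the other way in its means and its libraries overlapped, with 100.3 and 132 CPM against 90.0 and 202 CPM. The summed CPM of the 9 was 4118 and 4645 in wild type and 2082 and 3356 in the deletion, and most of it came from snoR61 and snR191.

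snoR61 was also the RNA with a clear second readout. Its deposited junction RPKM, from reads across an exon junction, was 34.6 and 28.5 in wild type and 30.3 and 15.0 in the deletion. The strains overlapped on this readout, unlike on the total reads. The other RNA with any junction reads was SPNCRNA.159, with 0.233 and 0.139 junction RPKM in wild type and 0 in both deletion libraries. These values rest on few reads: in total it had 72.0 and 8.80 reads in wild type, against 68.6 and 0.00035 reads in the deletion. Its reads were split by fractions with SPNCRNA.681 on the same strand.

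ter1, the telomerase RNA that carries the template for telomere repeats (chr1:3084610-3086022, minus strand), had 14.6 and 11.0 CPM in wild type, against 6.30 and 8.75 CPM in the deletion. The groups did not overlap. Its log2 change was −0.78 ± 0.32, with an unadjusted p of 0.0456 and an edgeR adjusted p of 0.482. Its table entry overlaps the gene SPAC16A10.03c on the same strand.

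Across the RNAs, more stood below than above wild type. Both deletion libraries were below both wild-type libraries for 132 of 511 (25.8%) and above for 55 (10.8%), against 21.1% and 18.5% of all features. The antisense non-coding RNAs stood at 26.5% below and 11.1% above, close to those shares, and the difference was not tested. Features outside SPNCRNA stood at 19.8% and 20.5%. Of the 71 possible alternative UTRs 20 were below and 9 above, and of the 29 poly(A)-bearing RNAs 2 were below and 2 above. Where overlapping RNAs of one strand are joined into 467 loci, 127 loci were below and 54 above. In edgeR's quasi-likelihood test with Benjamini-Hochberg adjustment over 5915 features, 0 of the 263 RNAs that passed the filter on low counts had an adjusted p under 0.05, and 0.0169% of all features did. The deleted gene int6 itself missed this threshold in the same test, with an adjusted p of 0.111 at a log2 change of −6.23. A count of 0 therefore does not show that no RNA changed. At an unadjusted p under 0.05, 13 were higher (4.94%) and 39 lower (14.8%), against 4.8% and 5.31% of all features. DESeq2 called 4 higher and 7 lower of the 484 it tested, against 0.666% and 0.474% of features, and limma-voom called 0. With no filter on low counts, edgeR called 1 higher and 2 lower, against 0.222% and 0.074% of features. The titles give libraries with the same replicate number a code that both strains share, whose meaning they do not state. A fit blocked on that number gave 2 calls higher and 8 lower among the RNAs, against 1.49% and 1.78% of features.

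The median log2 change of the 263 was −0.23, against 0.00 over all features tested and −0.19 over the antisense non-coding RNAs. It was −0.26 below 2 CPM, −0.23 from 2 to 10 CPM and −0.18 from 10 CPM upwards. For features outside SPNCRNA the same bands gave 0.03, 0.05 and 0.01. A single library weighed heavily: without wild-type replicate 1 the median was −0.0014 over 283 RNAs. Wild-type replicate 1 was also above wild-type replicate 2 more often than not, since 62.0% of the 263 RNAs were lower in the latter, against 50.5% of all features. Deletion replicate 1 was below wild-type replicate 1 for 64.6% of the RNAs and below wild-type replicate 2 for 53.6%. Deletion replicate 2 was below them for 68.4% and 60.1%.

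**Figure D2:**
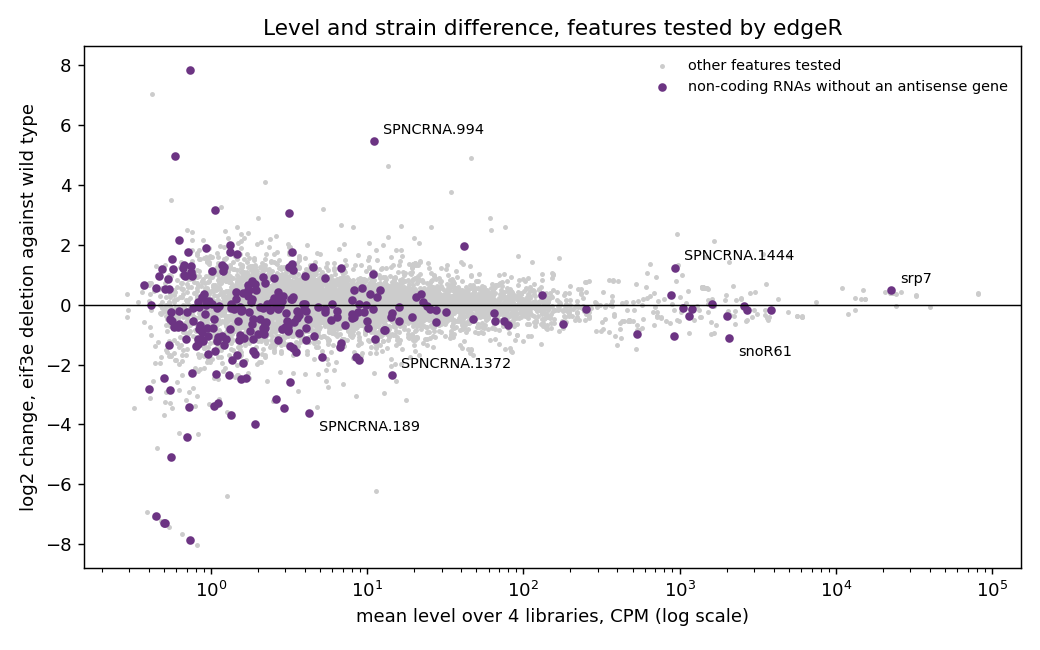
Log2 change of the eif3e deletion against wild type for each feature tested by edgeR (vertical axis) against its mean level over 4 libraries in CPM (log scale), with the non-coding RNAs without an antisense gene as large purple points and other features in grey. Of the 263 purple points 171 lie below 0 and 92 above, and the values beyond 4 in size belong to RNAs below 1 CPM, apart from SPNCRNA.994.

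The RNAs were also divided by the position of the neighbouring gene. Of the 226 RNAs with a divergent gene within 500 bases, 70 (31.0%) were below in both deletion libraries and 17 (7.52%) above, where all 511 stood at 25.8% and 10.8% and all features at 21.1% and 18.5%, and the median log2 change of the 133 tested was −0.37. Of the 57 RNAs with a gene of the same strand within 500 bases upstream, 12 (21.1%) were below and 10 (17.5%) above, with a median of −0.07 over 31 tested. The difference between these sets was not tested. The divergent neighbours themselves had a median near 0. For the 124 pairs within 500 bases with both tested, the median log2 change was −0.31 for the RNAs and −0.03 for their neighbours. Across those pairs the Pearson correlation of the changes was 0.129, a description over pairs measured in the same libraries. For a same-strand upstream neighbour at any distance it was 0.123 over 54 pairs. By chromosome, 60 of 233 RNAs were below and 19 above on chromosome 1, 50 and 25 of 185 on chromosome 2, and 22 and 11 of 93 on chromosome 3.

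SPNCRNA.189 and SPNCRNA.1372 had the smallest p-values among the lower RNAs. SPNCRNA.189 (chr1:2248603-2249009, plus strand) starts 67 bases from byr3, a gene of a zinc finger protein that runs the other way. It had 166 and 72 reads in wild type, against 25 and 6 reads in the deletion, which is 7.18 and 8.49 CPM against 0.713 and 0.505 CPM. Both deletion libraries were far below both wild-type libraries, which lay close together. Its log2 change was −3.61 ± 0.44, and edgeR's quasi-likelihood test gave an adjusted p of 0.0814, while byr3 had a log2 change of −0.15. No other feature overlaps SPNCRNA.189, and its next feature downstream is a glycine tRNA on the opposite strand 170 bases away.

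SPNCRNA.1372 (chr2:591798-592612, minus strand) had 26.3 and 22.0 CPM in wild type, against 4.36 and 5.13 CPM in the deletion. The libraries of each strain lay close together and the strains far apart. Its log2 change was −2.36 ± 0.29, with an edgeR adjusted p of 0.0814. It overlaps SPNCRNA.316 on the opposite strand, so reads of the pair may not be told apart. DESeq2 gave SPNCRNA.189 an adjusted p of 5.55e-06 and SPNCRNA.1372 one of 5.44e-06.

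SPNCRNA.1499 (chr2:2265286-2265818, plus strand) starts 42 bases from the divergent gene opi10 and lies 209 bases before snR5, a small nucleolar RNA gene of the same strand. It had 148 and 36 reads in wild type, against 13 and 8 reads in the deletion, or 6.40 and 4.24 CPM against 0.371 and 0.673 CPM, without overlap. Its log2 change was −3.44 ± 0.58, with an edgeR adjusted p of 0.149 and 0.00105 in DESeq2. SPNCRNA.513 (chr3:2230868-2231410, plus strand) had 4.54 and 6.37 CPM in wild type, against 0.770 and 1.09 CPM in the deletion. SPNCRNA.667, 61 bases from the divergent gene spo20, which encodes a phospholipid transfer protein, had 4.63 and 5.89 CPM in wild type, against 2.11 and 1.35 CPM in the deletion. SPNCRNA.218 starts 9 bases after an rRNA feature of its own strand, SPRRNA.14, and had 9.08 and 6.72 CPM in wild type, against 2.25 and 2.53 CPM in the deletion. SPRRNA.14 had a log2 change of 0.58, so the RNA and its neighbour did not share a direction. The other RNAs named by the same rule, SPNCRNA.1088, SPNCRNA.1278, SPNCRNA.1581 and SPNCRNA.778, had log2 changes of −1.43, −1.38, −0.83 and −1.18. All of these but SPNCRNA.1278 overlap an SPNCRNA feature on the opposite strand. Abundant SPNCRNA.893, which stands 6044 bases from its nearest same-strand feature, had 1256 and 1236 CPM in wild type, against 489 and 716 CPM in the deletion. Its log2 change was −1.05 ± 0.37. It overlaps SPNCRNA.87 on the opposite strand, so reads of the pair may not be told apart.

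**Figure D3:**
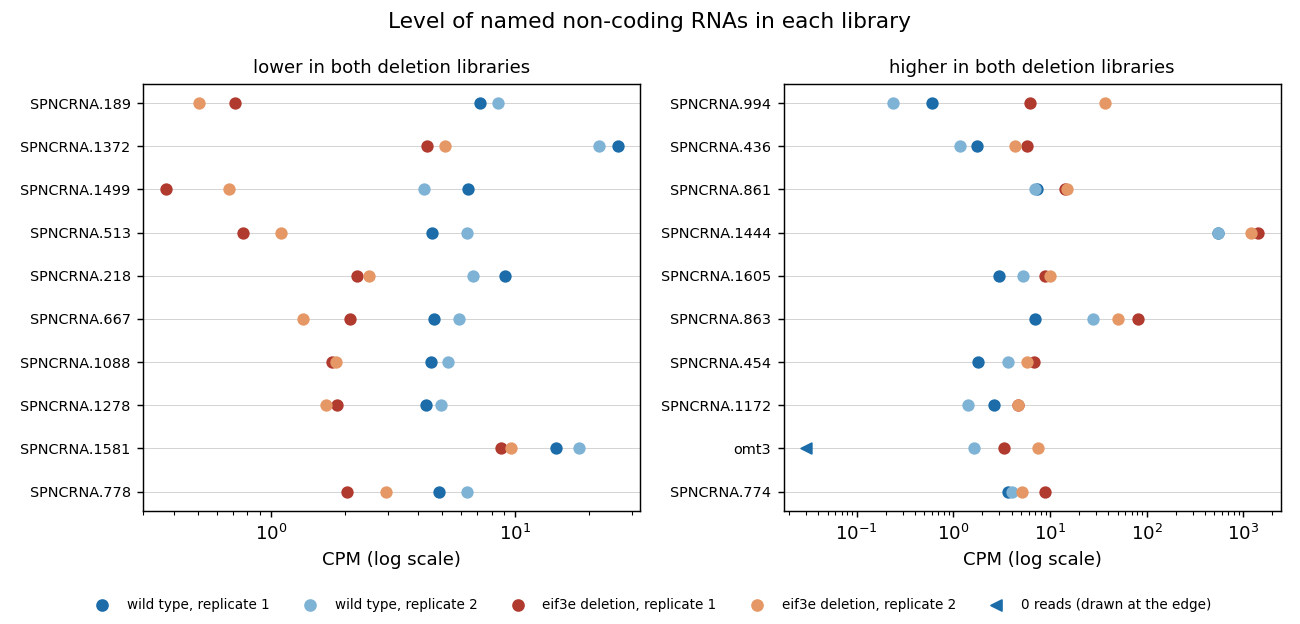
CPM (log scale) of 20 non-coding RNAs in each library, on the left the 10 with the smallest edgeR p among those lower in both deletion libraries and on the right the 10 among those higher, each within the upper 75% of tested features by mean CPM, with a triangle for 0 reads. SPNCRNA.189 stands at 7.18 and 8.49 CPM in wild type and at 0.713 and 0.505 CPM in the deletion, and SPNCRNA.994 at 0.606 and 0.236 CPM against 6.19 and 37.4 CPM.

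A large upward difference was at the omt3 locus, whose RNA is listed in RefSeq as forming foci of Smp proteins in meiosis. SPNCRNA.994 and omt3 (SPNCRNA.130), both on the plus strand of chromosome 1, cover nearly the same bases and share reads by fractions. Together they had 14 and 16 reads in wild type, against 335 and 534 reads in the deletion, or 0.606 and 1.89 CPM against 9.55 and 44.9 CPM. Both deletion libraries were above both wild-type libraries, and they differed from each other by several fold. SPNCRNA.994 alone stood at a log2 change of 5.47 ± 0.98, with p adjusted to 0.164 by edgeR's quasi-likelihood test and 1.32e-09 by DESeq2. For omt3 the log2 change was 3.06 ± 1.31, with an edgeR adjusted p of 0.497. omt3's own value moved from 1.70 without wild-type replicate 1 to 9.98 without wild-type replicate 2. The nearest gene upstream is mei2, which encodes the RNA-binding protein that drives meiosis, 1002 bases away on the opposite strand. Downstream lies omt2, 346 bases away on the same strand, with a log2 change of 0.27.

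The RefSeq product descriptions link 2 other RNAs to meiosis, and gene symbols were not searched for such a link. SPNCRNA.103, the sme2 isoform with 8 motif copies printed above, had 650 and 134 reads in wild type, against 939 and 238 reads for the deletion. In CPM the strains overlapped, with a log2 change of 0.09 ± 0.34. SPNCRNA.71, which RefSeq lists as made in meiosis, stationary phase and quiescence, had 27, 8, 30 and 5 reads, with both deletion libraries below both wild-type libraries in CPM and a log2 change of −0.69 ± 0.89.

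SPNCRNA.1444 (chr2:1557726-1558047, minus strand) had the highest mean RPKM of the 10 RNAs named for the smallest p among those higher. It had 553 and 553 CPM in wild type, against 1415 and 1195 CPM in the deletion, from 4687 reads or more in every library. The wild-type libraries were nearly equal and both deletion libraries stood well above them. Its log2 change was 1.24 ± 0.35, with an edgeR adjusted p of 0.331 and 0.00716 in DESeq2. It lies 131 bases downstream of rpl26, a gene of a large ribosomal subunit protein on the same strand, which had a log2 change of 0.12.

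SPNCRNA.861 and SPNCRNA.863 lie next to each other on the minus strand of chromosome 1, before the gene cbm1. Each of them overlaps SPNCRNA.862 on the opposite strand, so its reads may not be told apart from theirs. SPNCRNA.861 had 7.35 and 7.07 CPM in wild type, against 14.2 and 15.0 CPM in the deletion, a log2 change of 1.01 ± 0.27. SPNCRNA.863 had 6.92 and 27.9 CPM in wild type, against 82.3 and 49.9 CPM in the deletion, a log2 change of 1.95 ± 0.61 that ranged from 1.24 without wild-type replicate 1 to 3.26 without wild-type replicate 2. Both were without overlap between the strains, and SPNCRNA.863 varied widely within wild type. The rest of the named higher RNAs had log2 changes of 1.76 for SPNCRNA.436, 1.24 for SPNCRNA.1605, 1.25 for SPNCRNA.454, 1.15 for SPNCRNA.1172 and 0.89 for SPNCRNA.774, which starts 8 bases from the divergent chaperone gene pss1. SPNCRNA.1605 and SPNCRNA.454 also overlap an SPNCRNA feature on the opposite strand. On the same strand SPNCRNA.454 overlaps the gene SPCC757.13, and SPNCRNA.436 overlaps SPNCRNA.1657, so their reads were split by fractions. Joined with SPNCRNA.1657, the SPNCRNA.436 locus had 3.24 and 1.30 CPM in wild type, against 6.27 and 4.71 CPM in the deletion. SPNCRNA.1255 had 0 reads in both wild-type libraries and 50 and 18 reads in the deletion, at least 15.5-fold higher where 3 reads over both wild-type libraries set the limit.

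Centromeric RNAs, which feed the RNA interference pathway that silences centromeres, were near the limit of detection. Of 20 centromeric or centromere-proximal RNAs, 9 (45%) had both deletion libraries above both wild-type libraries and 2 (10%) had both below, against 18.5% and 21.1% of all features. Of these 9, SPNCRNA.1172 had 2.64 and 1.41 CPM in wild type, against 4.70 and 4.63 CPM in the deletion, and the others had at most 15 reads in any library. Just 3 of the 20 passed the filter on low counts, and their median log2 change was −1.13. It was 1.15 for SPNCRNA.1172, where edgeR's quasi-likelihood test gave an unadjusted p of 0.0407, −3.39 for SPNCRNA.480, with one of 0.0393, and −1.13 for SPNCRNA.84, with one of 0.523. nam5 and nam6, near-identical RNAs whose reads were split by fractions, together had 6 and 3 reads in wild type, against 26 and 13 reads in the deletion. The summed CPM of the 20 overlapped between the strains, with 7.44 and 4.24 in wild type and 6.61 and 9.43 in the deletion.

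**Figure D4:**
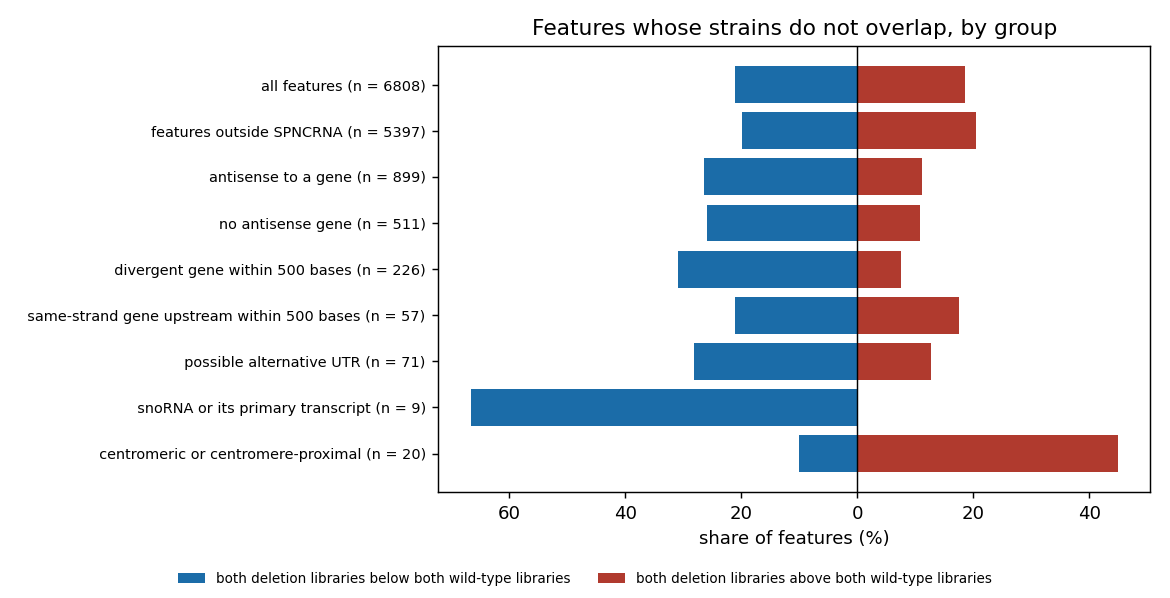
Share of features (%) with both deletion libraries below both wild-type libraries (blue, left) or above both (red, right), for all features, for the classes of non-coding RNA and for groups within those without an antisense gene, with the number in each. The RNAs without an antisense gene stand at 25.8% below and 10.8% above, and the 20 centromeric RNAs at 10% below and 45% above.

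RNAs known to control a neighbouring gene were also measured, and they are named here after their values were seen. nam1, which represses byr2, had 2.51 and 5.19 CPM in wild type, against 2.79 and 3.79 CPM in the deletion. SPNCRNA.1343, which starts divergent to the RNA that represses the permease gene tgp1, had 4.71 and 2.95 CPM in wild type, against 2.37 and 2.19 CPM in the deletion. fbp1-ot3, one of the RNAs made upstream of the glucose-repressed gene fbp1, had 16 and 0 reads in wild type, against 27 and 8 reads in the deletion. Of these 3, SPNCRNA.1343 was the one without overlap between the strains, at a log2 change of −0.76 ± 0.46.

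No gene on a list of those that degrade or silence non-coding RNA passed the test, and neither did the deleted gene int6. Of 39 genes of the exosome, its helper complexes, 5′ to 3′ decay, nonsense-mediated decay and RNA interference, 36 were found by name and 35 tested. None had an adjusted p under 0.05 in edgeR, and at an unadjusted p under 0.05 there was 1 higher (2.86%) and 2 lower (5.71%), against 4.8% and 5.31% of all features. The exosome subunit genes rrp4 and rrp40 were those lower. rrp4 had 18.8 and 15.8 CPM in wild type, against 5.67 and 8.25 CPM in the deletion, a log2 change of −1.33 ± 0.31 with an edgeR adjusted p of 0.257. rrp40 had 20.3 and 17.8 CPM in wild type, against 12.2 and 6.99 CPM in the deletion. dhp1, the nuclear 5′ to 3′ exonuclease, was the higher one, with 14.1 and 15.1 CPM against 21.3 and 22.6 CPM. rrp6, the nuclear exonuclease of the exosome, had a log2 change of −0.08 and mmi1 one of −0.02. The median of the 35 was −0.08, against 0.00 over all features, and 4 genes (11.1%) were above and 9 (25%) below in both deletion libraries, against 18.5% and 21.1% of all features. Any part of these genes in the levels of the non-coding RNAs was not tested.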

How the data were processed

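The deposited table holds, per the file headers, the authors' estimated counts of reads per feature, partly fractional, with RPKM (reads per length and per library size) and junction RPKM beside them. It also has a p-value and a chi-square score for each feature, deposited by the authors, which gave no result here, and another column with transcript length in bases, per the file headers. Bowtie 1.1.0, TopHat 1.4.1, SAMtools and Partek 6.0 are named without roles, per the submitters' processing notes. The sources used here do not name the genome build or annotation. Coordinates were identical to RefSeq ASM294v3 for 432 of 460 matched RNAs (93.9%) and for 153 of 153 tRNAs, so its names and sequence were used.

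Members and lists were chosen with earlier results of these data known. Names matched by locus tag for 445 RNAs and by synonym for 15. Counts were rounded and fitted over all features with edgeR 4.0.16 in R 4.3.3 (TMM, filterByExpr, quasi-likelihood F test, two-sided, strain as the only term, Benjamini-Hochberg threshold 0.05). The standard error is the log2 change divided by the square root of F. DESeq2 1.42.0 and limma 3.58.1 (voom) were alternatives, with other size factors, no filter, whole counts alone (tolerance 1e-06), rRNA left out, a replicate block and each library left out. The fit was tested on simulated data. Shares were compared by an exact permutation test. Tables and plots were made with pandas 2.3.3 and matplotlib 3.10.9, and the permutation test with scipy 1.17.1, in Python 3.11.15.

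Named RNAs were, in each direction, the 10 with the smallest edgeR p among those without overlap between strains and in the upper 75% of tested features by mean CPM, the 10 most abundant by RPKM, up to 12 with a symbol, those with junction reads, and the 3 farthest from a same-strand feature. Others, and the TNAAAC search, were chosen after values were seen. Start windows were cut from the genome sequence because no promoter table was used here. There were 0 columns of values not tied to a labelled library. Limits from counts cover counting error only. Common dispersion was 0.111. One sequence that is withheld is not reported here.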

Additional observations from a re-analysis of the deposited data

How the results depend on the processing

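The count of RNAs with an adjusted p under 0.05 was 0 in edgeR, and stayed at 0 with RLE size factors, with nuclear rRNA left out, with limma-voom and among RNAs that overlap no other feature. It was 3 with no filter on low counts, 2 with whole counts alone and 11 with DESeq2, and from 0 to 19 with a library left out, where the lone library of a strain is assumed to vary like the other strain. Over all features, edgeR called 20 of 6754 with no filter and 16 of 5166 with whole counts alone, and DESeq2 called 77 of 6754. The largest count with a library left out arose without deletion replicate 2, the fit with the most calls over all features. Its lone deletion library has no spread of its own, so that count cannot show whether the RNAs differed from other features. A replicate block in the edgeR fit gave 10 calls among the RNAs (2 higher, 8 lower) of 193 among all 5915 features. The 10 included SPNCRNA.189, SPNCRNA.1372, SPNCRNA.1499, SPNCRNA.994, SPNCRNA.1444 and snoR61. The titles give each number a code shared by both strains, and the labels do not say what it marks. Deviations from the strain mean in the replicate 1 libraries of the strains had a correlation of 0.238 over the features tested. With 2 libraries per strain the replicate 2 libraries give the same value, so they add nothing to it. The median log2 change was −0.47 with no filter and −0.45 with DESeq2, from −0.44 to −0.0014 with a library left out, and between −0.34 and −0.22 otherwise. The first 2 include RNAs of few reads that the filter removes. The correlation with same-strand upstream neighbours was 0.248 within 500 bases. The difference in the share of reads moved by less than the replicate spread, from −1.42 to 3.05 percentage points with a library left out, and −0.333 of all reads. SPNCRNA.189 and SPNCRNA.1372 ranged from −3.92 to −3.44 and from −2.47 to −2.23 with a library left out. Of 437 alternative values for 41 named RNAs, 383 kept direction and side of the threshold, 37 passed it and 17 turned sign, all with a library left out and none past the threshold: prl3 (−0.10 to 0.72), mrp1 (−0.74 to 0.22), prl58 (−0.46 to 0.30), sno530 (−0.36 to 0.80), SPNCRNA.507 (−0.43 to 0.093), prl59 (−0.27 to 0.64), snR191 (−0.55 to 0.26), prl53 (−0.30 to 0.064), SPNCRNA.242 (−0.72 to 0.25), srp7 (−0.42 to 1.24), SPNCRNA.515 (−0.86 to 0.0067) and SPNCRNA.491 (−0.37 to 0.24). For the moved counts the cause was not tested. Depth limits the rest: 464 of the 511 RNAs had a mean below 10 RPKM.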

Other observations

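Near the chromosome ends the 2 readouts of the RNAs differed. Of 46 within 100 kb of an end, 15 (32.6%) had both deletion libraries below both wild-type libraries and 3 (6.52%) had both above, against 24.5% and 17.5% of the 200 features outside SPNCRNA in the same regions. Of the 25 tested, however, 14 had a negative and 11 a positive log2 change, with a median of −0.09, against −0.23 over all the RNAs tested. SPNCRNA.601 had 9.95 and 16.6 CPM in wild type, against 6.33 and 1.09 CPM in the deletion. SPNCRNA.1300 had nearly the same values, 10.6 and 17.3 CPM in wild type, against 6.16 and 1.18 CPM in the deletion, and whether they share reads was not tested.

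Some RNAs linked to growth state were also measured. The heat shock RNA SPNCRNA.1624 had 10.5 and 13.3 CPM in wild type, against 7.55 and 8.59 CPM in the deletion, with a log2 change of −0.56 ± 0.29. It overlaps SPNCRNA.426 on the same strand, which had a log2 change of 1.27. Joined, they had 11.7 and 13.4 CPM in wild type, against 11.0 and 8.67 CPM in the deletion, a smaller difference. Of 4 RNAs that RefSeq links to stationary phase, 3 were below in both deletion libraries and 0 above, against 21.1% and 18.5% of all features. They had at most 30 reads in any library, and 1 of the 4 passed the filter on low counts. The summed CPM of the 4 overlapped between the strains, with 1.90 and 2.00 in wild type and 2.45 and 0.758 in the deletion. The poly(A)-bearing RNA prl28 had 2.60 and 2.95 CPM in wild type, against 6.81 and 3.70 CPM in the deletion, with a log2 change of 0.95 ± 0.44, for which edgeR's adjusted p was 0.520. It overlaps the gene SPAC29B12.14c on the same strand.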
